A study of Caenorhabditis elegans with 2 samples.

Results

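The genes described here form the switch that drives entry into mitosis in Caenorhabditis elegans: the kinase gene cdk-1, the mitotic cyclin genes cya-1, cyb-1, cyb-2.1, cyb-2.2 and cyb-3, the phosphatase genes cdc-25.1 and cdc-25.2, the inhibitory kinase gene wee-1.3 and the polo-like kinase gene plk-1. They were chosen by name for this role, with earlier results of these data known. They are 10 of the 19973 protein-coding genes annotated on the nuclear chromosomes. They were read for binding of EFL-1, a transcription factor of the E2F family. Of these 10 genes, 5 had a reproducible EFL-1 peak in their promoter window, beside 11.01% of all protein-coding genes. The peaks were strong at wee-1.3 and cyb-1, and of intermediate signal at cdk-1, plk-1 and cyb-3. The cyb-1 and cyb-3 summits lay nearer to a neighbouring gene. With each summit counted only for the nearest protein-coding 5' end, 3 of the 10 genes had a peak (7.53% of all genes). Neither cdc-25 gene, nor cya-1, cyb-2.1 or cyb-2.2, had a reproducible peak in its window.

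EFL-1 binding was mapped by ChIP-seq, which sequences DNA fragments brought down with a protein by an antibody, in whole larvae of the first larval stage (L1), of both sexes. All worms were of strain YL418, which carries the mutation unc-119(ed3)III and the transgene vrIs65, whose label reads pGES-1, EFL-1, GFP, FLAG and the EFL-1 3'UTR, with unc-119 (+) beside it. There was 1 group, of biological replicates labelled 2 and 3, each with 1 technical replicate, so there is no second condition to compare. The ges-1 promoter named in the transgene is active in the intestine. The sources used here do not say in which cells the tagged protein was present, or whether the antibody, labelled only efl-1, recognises the tag or EFL-1, and a signal from whole larvae does not say which cells it came from.

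CDK-1 is the kinase that starts mitosis once it is joined to a cyclin, mainly a B-type cyclin. The WEE-1.3 kinase holds the CDK-1 and cyclin B complex inactive by phosphorylating CDK-1, CDC-25 phosphatases take that phosphate off again, and polo-like kinase acts on the same loop and on the spindle and centrosomes. E2F proteins bind DNA together with a DP partner and can activate or repress cell-cycle genes. In worms EFL-1 acts with DPL-1 and is part of the DREAM complex, whose LIN-54 subunit binds a second DNA element, the cell-cycle genes homology region (CHR).

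A gene was counted as having a peak if the summit of a region past the authors' irreproducible discovery rate (IDR) threshold lay within 1000 bp before or 500 bp after any of its annotated 5' ends. In worms many transcripts are trans-spliced, so an annotated 5' end can lie downstream of the true start of transcription. The IDR set on build ce11 (WBcel235) held 1886 peaks, which were the 1886 strongest regions of the pooled list. Their signal, the authors' value per region, ran from 24.4 to 2581 with a median of 62.0. A promoter peak was present at 5 of the 10 genes, beside 2200 of 19973 protein-coding genes (11.01%, exact 95% interval 10.6 to 11.5%, counting error only). All 5 peaks were also among the 943 strongest. Those held a promoter peak of 6.48% of all genes and of 58.9% of the genes with a promoter peak. These counts are a description and carry no test, because the genes were chosen with earlier results of these data known.

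The sequences under the summits are shown first, because they show which motifs each peak holds. The E2F motif was sought as the 4 octamers TTTCCCGC, TTTCGCGC, TTTGCCGC and TTTGGCGC, and the CHR element as TTTGAA, on both strands, within 100 bp of each summit. Each stretch below is 30 bases of ce11 written 5′ to 3′ on the minus strand, with the motifs in capitals and the rest in lower case. For cyb-1 and plk-1 it is the E2F-like octamer nearest the summit, and for cdk-1 the CHR element. For wee-1.3 and cyb-3 it holds both motifs, with 6 bases between them in the first wee-1.3 stretch and 0 in the other 2.
wee-1.3, chrII:9716793-9716822: tcctcTTTCGCGCgcttgtTTTGAAttgca
wee-1.3, chrII:9716872-9716901: aattatttTTTGAATATCCCGCtgttttcc
cyb-3, chrV:15395111-15395140: aaatcgcaTTCAAATCTGCCGCttgttcgg
cyb-1, chrIV:10734744-10734773: ttattttcaagGTTCGCGCtgcaatacgac
plk-1, chrIII:8101134-8101163: cgtgtgtcgatTTACGCGCcgatgaaaaag
cdk-1, chrIII:9747386-9747415: taagcgtgtaatTTTGAAtcatttccactg

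The first wee-1.3 stretch holds TTTCGCGC without a mismatch and, after 6 bases on the same strand, TTTGAA. The second wee-1.3 stretch holds TTTGAA and, directly after it, TATCCCGC, which differs from TTTCCCGC by T2A, with positions counted from 1 at the 5′ end of the octamer. In the cyb-3 stretch the capitals are TTCAAA, which is TTTGAA read on the other strand, and directly after it TCTGCCGC, which differs from TTTGCCGC by T2C. The cyb-1 octamer differs from TTTCGCGC by T1G and the plk-1 octamer from the same word by T3A. In all 4 octamers with a mismatch shown here the substitution lies in the run of T at the start, and the bases from position 4 to position 8 match. Other octamers with 1 mismatch lay 91.5 and 80.5 bp from the wee-1.3 summit and 53.5 bp from that of plk-1. Their substitutions are not given here, and whether this position of the mismatch is more frequent than at other summits was not tested.

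cdk-1 (WBGene00000405, chrIII:9747472-9748852, plus strand) encodes the mitotic kinase itself. Its peak covered chrIII:9747291-9747462, 172 bp, with the summit 111 bp upstream of the single annotated 5' end, between genes. The signal there was 115.5 in replicate 2 and 43.7 in replicate 3, which ranked 495 and 524 among the 30000 regions of each list. Divided by the median signal of the IDR peaks in the same replicate (45.8 and 19.2), these values became 2.52 and 2.28, a scaled signal of 2.40 ± 0.175 (SD, n = 2). The replicate summits lay 1 bp apart, beside a median gap of 17 bp over the IDR peaks and 11 bp over the stronger 943. The pooled signal was 161.2, rank 498 of the IDR set. Both replicates thus placed a peak of intermediate signal at the same spot close to the gene start.

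The cyclin genes divided into 2 with a peak and 3 without. cyb-1 (WBGene00000865, chrIV:10735216-10737177, plus strand) encodes the B1-type cyclin, and its peak at chrIV:10734587-10734855 was the strongest among the cyclins. The summit lay between genes, 493 bp upstream of the nearer of 2 annotated 5' ends. The signal at cyb-1 was 609.5 in replicate 2 and 222.8 in replicate 3, ranks 62 and 58. The scaled values of cyb-1 were 13.3 and 11.6, with a mean of 12.5 ± 1.22 (SD, n = 2), and the replicate summits lay 14 bp apart. The pooled signal of 828.2 ranked 62 in the IDR set and was higher than the strongest promoter peak of 96.1% of the 2200 genes that had one.

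cyb-3 (WBGene00000868, chrV:15395696-15397353, plus strand) encodes the B3-type cyclin and had a weaker peak, at chrV:15394972-15395255. Its summit lay 582 bp upstream of the nearer of 2 annotated 5' ends, the farthest of the 5. The signal at cyb-3 was 81.1 in replicate 2 and 36.1 in replicate 3, ranks 625 and 595. The scaled values were 1.77 and 1.88, with a mean of 1.82 ± 0.0762 (SD, n = 2), and the replicate summits lay 3 bp apart. cyb-3 also had a second region nearer to the gene that was not in the IDR set. In replicate 2 this region had a summit 176 bp upstream and a signal of 24.3, rank 1486. In the pooled list it lay 88 bp upstream with a signal of 17.5, rank 2573 and a −log10 q-value of 1.59, and the replicate 3 list held none. Only the distant cyb-3 region was therefore present in both replicates.

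cya-1 (WBGene00000863, chrIII:9106699-9109272, minus strand) encodes cyclin A. Its window held 1 region in any list, in replicate 2, 630 bp upstream with a signal of 7.70, rank 5186 of 30000. The nearest IDR summit lay 16835 bp upstream of cya-1. The window of cyb-2.1 (WBGene00000866, chrIV:10985985-10987426) and that of cyb-2.2 (WBGene00000867, chrI:4114861-4116370), a pair of closely related B-type cyclin genes, held no region in the pooled list or in either replicate list. Among all protein-coding genes 28.5% had no region in these 3 lists. Of the 36-base words in these windows, 75.2% were unique in the genome for cyb-2.1 and 76.1% for cyb-2.2, against 99.2 to 100% for the other 8 genes. The sources used here do not say how reads that match both copies were counted, and the part of the shared words in the missing regions was not tested.

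Neither activating phosphatase gene had a reproducible peak. cdc-25.1 (WBGene00000386, chrI:6469386-6471922, minus strand), needed for germline proliferation, had a weak region 128 bp upstream of its 5' end in the pooled list, with a signal of 9.62, rank 8519 and a −log10 q-value of 0.168. The cdc-25.1 region had a signal of 3.30 in replicate 2, rank 29470, and 4.48 in replicate 3, rank 12134. The lowest signals kept in the lists were 5.72, 3.25 and 2.63 for the pooled list, replicate 2 and replicate 3. The cdc-25.1 value was thus near the bottom of the replicate 2 list alone, and its pooled signal was below the lowest of the IDR set, 24.4. cdc-25.2 (WBGene00000387, chrV:1567076-1585532, plus strand, 4 annotated 5' ends), which acts in oocyte maturation, had a region in each replicate list but none in the pooled list. The replicate 2 region lay 917 bp upstream with a signal of 4.44, and the stronger replicate 3 region 241 bp upstream with a signal of 4.59, so the replicates did not place it at the same spot. Both distances are from 5' ends of shorter cdc-25.2 transcripts, and both regions lie inside the longest annotated span of the gene. The paralogs cdc-25.3 and cdc-25.4 had no IDR peak either, and their windows held only 2 regions in the replicate 2 list, both at cdc-25.4, the stronger with a signal of 3.79.

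wee-1.3 (WBGene00006940, chrII:9713737-9716467, minus strand), the membrane-bound Myt1-type kinase that inhibits CDK-1, had the strongest peak of the 10 genes. The peak covered chrII:9716717-9716998, 282 bp, with the summit between genes, 389 bp before the gene start. The signal at wee-1.3 was 661.6 in replicate 2 and 279.4 in replicate 3, ranks 53 and 29. The scaled values were 14.5 in both, with a mean of 14.5 ± 0.0648 (SD, n = 2), and the replicate summits lay 6 bp apart. The pooled signal of 940.6, rank 44, was 38.5 times the lowest signal of the IDR set and higher than that of 97.2% of the genes with a promoter peak. Its paralog wee-1.1 had no region in any list.

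plk-1 (WBGene00004042, chrIII:8101348-8104069, plus strand) had a peak at chrIII:8101097-8101237, at 141 bp the narrowest of the 5, with the summit between genes, 192 bp before the gene start. The signal at plk-1 was 87.2 in replicate 2 and 34.6 in replicate 3, ranks 599 and 608. The scaled values were 1.91 and 1.80, with a mean of 1.85 ± 0.0738 (SD, n = 2), and the replicate summits lay 25 bp apart. The pooled signal was 123.3, rank 589. The paralogs plk-2 and plk-3 had no region in any list.

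**Figure D1:**
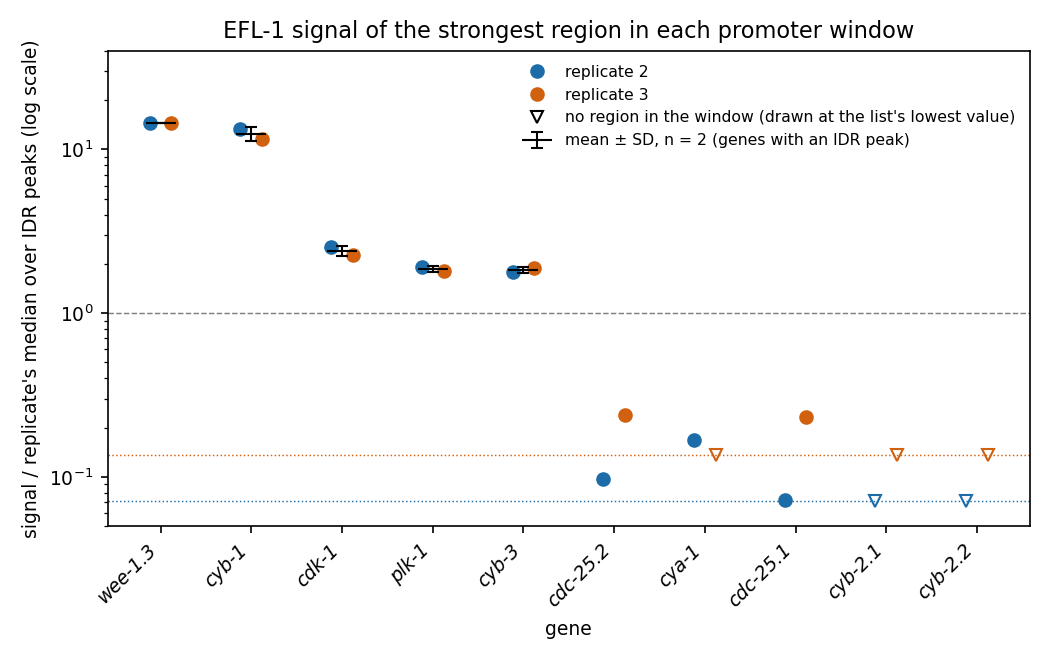
Signal of the strongest region in each gene's promoter window in replicate 2 (blue) and replicate 3 (orange), divided by the median IDR peak of that replicate, on a log axis; black bars give the mean ± SD (n = 2), open triangles mark no region and stand at the list's lowest value (dotted lines). wee-1.3 (14.5) and cyb-1 (12.5) stand above cdk-1 (2.40), plk-1 (1.85) and cyb-3 (1.82), the regions of cdc-25.2, cya-1 and cdc-25.1 lie below 1, and cyb-2.1 and cyb-2.2 have none.

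In order of scaled signal the genes were wee-1.3, cyb-1, cdk-1, plk-1 and cyb-3, as the plot of scaled signal by replicate shows. plk-1 and cyb-3 differed by less than their spread, and their order was opposite in the 2 replicates. The other neighbours kept their order in both replicates and their means ± SD did not overlap, although 2 values a gene are no test of order. Replicate 2 values were 2.25 to 2.74 times the replicate 3 values at the 5 genes, around the median of 2.48 over the IDR peaks. The IDR set was made by comparing the replicate lists, so agreement between replicates at its peaks is in part built in. The −log10 q-value was at the highest value of its list at all 5, in the pooled and both replicate lists, and does not rank them.

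Genes with and without a peak lie on either side of 24.4, the lowest signal of the IDR set, by definition. The lowest of the 5 signals, at cyb-3, was 4.79 times the lowest in the IDR set. The highest pooled signal in a window outside the IDR set was 17.5, at the second cyb-3 region, and 9.62 at cdc-25.1 among the genes with no peak. The median signal of the 5 genes was 161.2, beside 78.4 for the strongest promoter peak over the 2200 genes that had one. Counted in the longer lists, a region fell in the window of 6 of the 10 genes in the pooled list (50.98% of all genes), 8 in replicate 2 (50.2%) and 7 in replicate 3 (50.1%), so presence in those lists separates these genes little from any others.

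**Figure D2:**
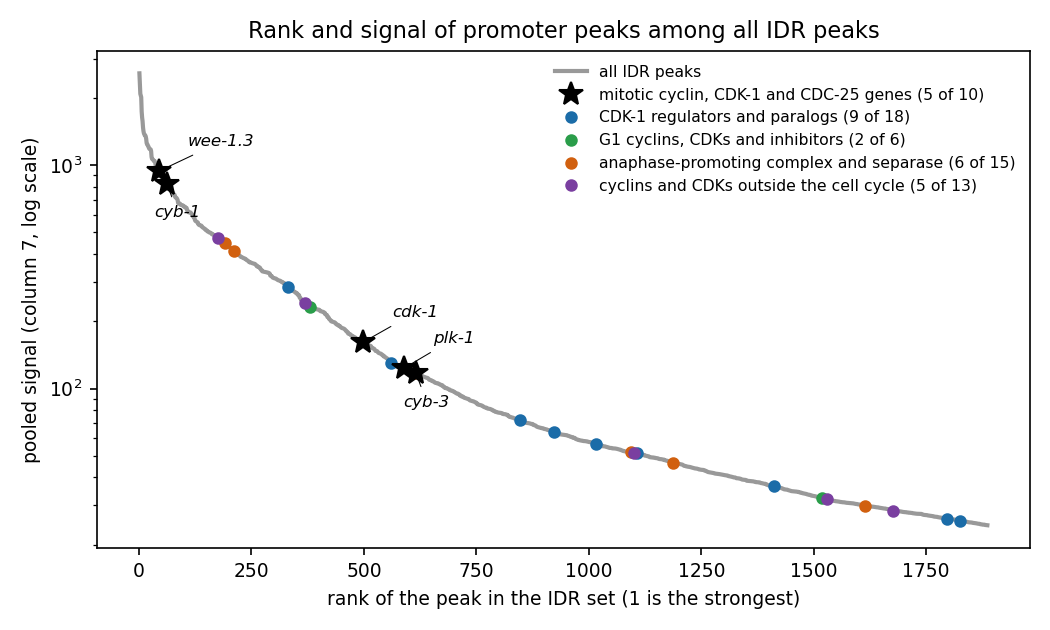
Pooled signal (log axis) against rank for all 1886 IDR peaks (grey line), with the promoter peaks of the mitotic cyclin, CDK-1 and CDC-25 genes as black stars and those of 4 related gene lists as coloured dots. wee-1.3 and cyb-1 stand at ranks 44 and 62, cdk-1, plk-1 and cyb-3 at ranks 498, 589 and 616, all in the stronger 943 peaks.

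The position of the peaks relative to neighbouring genes differed among the 5. The cdk-1 summit lay in the 278 bases between cdk-1 and the divergent gene iff-1, which encodes a translation factor of the eIF5A type, 168 bp upstream of iff-1 and 111 bp upstream of cdk-1. The cyb-1 summit lay in the 627 bases between cyb-1 and orc-5, which encodes a subunit of the origin recognition complex. It was 135 bp from orc-5 and 493 bp from cyb-1, and the peak reached into orc-5. The cyb-3 summit lay in the 734 bases between cyb-3 and T06E6.1, 153 bp from T06E6.1 and 582 bp from cyb-3. For cyb-1 and cyb-3 the peak was thus nearer to the neighbour, and which of the divergent genes it acts on cannot be told from a position.

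wee-1.3 and plk-1 have no divergent protein-coding neighbour within 1000 bp. On their own strand, a short non-coding RNA is annotated nearer to the summit, the piRNA 21ur-12807 84 bp from the wee-1.3 summit and the non-coding RNA C14B9.15 70 bp from that of plk-1. The nearest upstream protein-coding genes were Y53C12A.6 and K06H7.1, both on the same strand and ending 830 and 621 bases away. All 3 genes with a divergent 5' end within 1000 bp had a peak, against 2 of the 7 without. Among all protein-coding genes, 31.9% of the 3539 with such a neighbour and 6.52% of the 16434 without one had a promoter peak. This split was chosen after the values were seen.

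**Figure D3:**
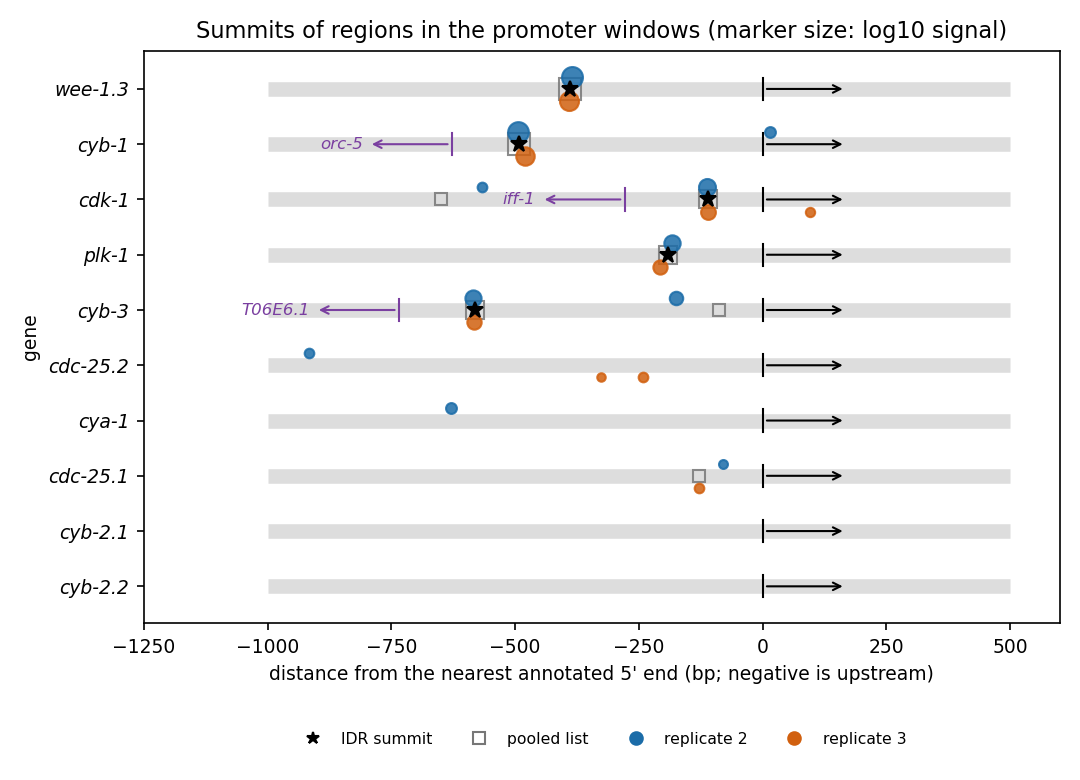
Position of region summits in the promoter window (grey bar) of each gene, in bp from the nearest annotated 5' end (negative is upstream); stars are IDR summits, open squares pooled regions and filled circles replicate regions, with size following log10 signal and purple arrows marking divergent neighbours. The 5 starred summits lie from 111 to 582 bp upstream with both replicates beside them, and the second cyb-3 region has no replicate 3 mark.

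The distance to the gene start decided some calls. The summits lay 111, 192, 389, 493 and 582 bp upstream of cdk-1, plk-1, wee-1.3, cyb-1 and cyb-3, with a median of 389 bp, beside a median of 222 bp over the genes with a promoter peak, 65.3% of which had it within 300 bp. In a window from 300 bp before to 100 bp after the 5' end, 2 of the 10 genes, cdk-1 and plk-1, had a peak (7.17% of all genes). When each summit counted only for the nearest protein-coding 5' end, cdk-1, plk-1 and wee-1.3 remained, 3 of 10 (7.53%), since the other 2 summits lie nearer to orc-5 and T06E6.1. The count stayed 5 when a peak only had to touch the window (11.4% of all genes), with the 5' end of the gene record alone (10.6%), and with the 1886 strongest regions of replicate 3 (10.4%) or replicate 2 (10.8%) alone.

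For the 5 genes without a peak, no IDR summit lay in the gene body either. The nearest IDR summits were 11020 bp from the 5' end of cdc-25.1, 16835 bp from cya-1, 17443 bp from cyb-2.2, 49771 bp from cyb-2.1 and 95340 bp from cdc-25.2. The median over the 17773 protein-coding genes without a promoter peak was 23924 bp, so these 5 lie on both sides of it.

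The motifs printed above were read against their frequency elsewhere. An exact E2F octamer lay within 100 bp of the summit at wee-1.3 alone, 1 of 5, beside 12.4% of the 1886 IDR summits, 15.7% of the stronger 943, 3.71% of stretches centred 500 bp to their left and 3.33% of 201-bp stretches just upstream of all protein-coding genes. With up to 1 mismatch an octamer was found at 4 of 5, all but cdk-1. The share was 61.2% of IDR summits, 67.0% of the stronger 943, 39.5% of stretches 500 bp to their left and 34.5% of upstream stretches. Octamer centres nearest the summit were 7.5 bp from it at plk-1, 8.5 bp at cyb-3 and 35.5 bp at cyb-1, and the exact octamer of wee-1.3 was 42.5 bp away. wee-1.3 also held 3 octamers with 1 mismatch in the same 201 bp.

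TTTGAA lay within 100 bp of the summit at cdk-1, cyb-3 and wee-1.3, 3 of 5, beside 49.8% of IDR summits and 61.0% of the stronger 943. The share was 43.7% of stretches 500 bp to the left of all IDR summits and 50.1% of upstream stretches. The element stood 39.5 bp from the summit at cdk-1, 15.5 bp at cyb-3, and 34.5 and 55.5 bp at wee-1.3. An octamer with up to 1 mismatch and a TTTGAA with at most 10 bases between them occurred at wee-1.3 and cyb-3. This arrangement was found at 13.7% of IDR summits, 19.8% of the stronger 943 and 3.31% of upstream stretches. With an exact octamer, as at wee-1.3, it was found at 4.29% of IDR summits, 5.73% of the stronger 943 and 0.531% of upstream stretches. The pairing was looked for after the sequences of the genes had been seen, and a match of letters is no evidence of binding at that base.

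**Figure D4:**
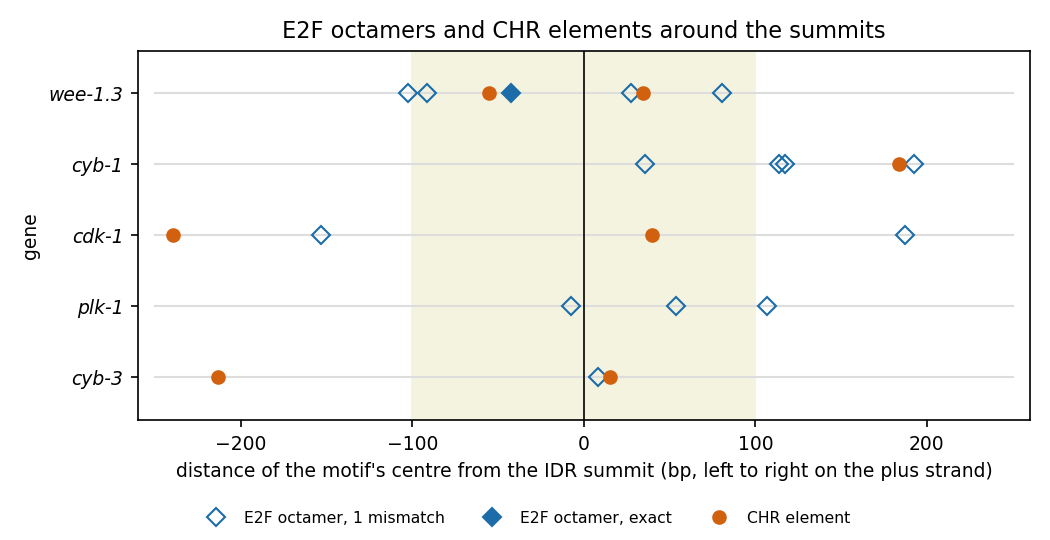
Positions of E2F octamers (filled diamond exact, open diamond 1 mismatch) and CHR elements (orange circles) around each IDR summit, in bp along the plus strand; the shaded band is 100 bp either side. Within the band wee-1.3 has the only exact octamer, and cdk-1 has a CHR element and no octamer. An octamer with 1 mismatch and a CHR element adjoin at cyb-3 (8.5 and 15.5 bp) and at wee-1.3 (27.5 and 34.5 bp).

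In the whole window of 1501 bp around the 5' end of the gene record, an exact octamer was present at 4 of the 10 genes, beside 19.6% of all windows. The octamer of wee-1.3 was the one under its peak. That of cdk-1 lay 587 bp upstream, far from the summit, and those of cdc-25.1 and cdc-25.2 lay 275 and 171 bp upstream of genes with no peak. TTTGAA occurred in all 10 windows and in 98.9% of all windows, so over this length it tells the genes apart in no way. The GC content within 100 bp of the summit ran from 30.3% at cyb-3 to 44.8% at plk-1, around the median of 39.8% over IDR summits.

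Genes that act on or beside the CDK-1 switch were read in the same way. Of 18 further CDK-1 regulators and paralogs, 9 had a promoter peak (11.01% of all genes) and 4 had one among the stronger 943 (6.48%). The strongest was at chk-1, the checkpoint kinase that restrains CDC-25 (scaled signal 3.95 in replicate 2 and 5.62 in replicate 3, mean 4.78 ± 1.18, SD, n = 2). Next was par-5, which encodes a 14-3-3 protein (1.67 and 2.83, mean 2.25 ± 0.820). The par-5 summit lay 740 bp upstream and nearer to the 5' end of another protein-coding gene. None of the 5 paralogs of the CDC-25, WEE-1 and PLK genes in that list was among the 9. wee-1.3 and cyb-1 stood above chk-1 in both replicates, while the cdk-1 value lay within the spread of par-5.

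Of 6 genes of the G1 cyclins, their kinases and inhibitors, 2 had a promoter peak. These were cye-1, the cyclin E gene (3.31 ± 0.682), and its kinase partner cdk-2 (0.529 ± 0.0844). The cye-1 summit lay 528 bp upstream and nearer to the 5' end of another protein-coding gene. Of 15 genes of the anaphase-promoting complex, its activators, separase and securin, which end mitosis by destroying cyclin B and releasing sister chromatids, 6 had one. The strongest were at the separase gene sep-1 (7.05 ± 0.486) and the securin gene ify-1 (5.91 ± 1.57). The sep-1 summit, 436 bp upstream, also lay nearer to another protein-coding 5' end, while ify-1 kept its peak under that rule. Of 13 cyclin and CDK genes with roles outside the cell cycle, 5 had one, with the strongest at the Mediator cyclin gene cic-1 (7.13 ± 0.488) and at cdk-5 (3.68 ± 0.168), best known from neurons. In the order given, 50%, 33.3%, 40% and 38.5% of the genes of the 4 lists had a promoter peak. The share was 50% of the mitotic genes and 11.01% of all genes. In each of the 4 lists the strongest peak was weaker than those of wee-1.3 and cyb-1. The lists were written with earlier results of these data known, and nothing here sets the mitotic genes apart from them by a test.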

How the data were processed

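The deposited files are narrowPeak lists of EFL-1 ChIP-seq regions. The ce11 lists were used, and the ce10 lists were not, since no coordinates were converted. Per the notes deposited with the files, the authors made the IDR set by comparing the replicate lists and the pooled list. The sources used here name neither aligner nor peak caller. Column 7 is the signal value the authors deposited, on a scale that differs between libraries, and column 9 is the authors' −log10 q-value. Per the deposited notes, the replicate and pooled lists were each made from alignments and 1 further file, and the notes do not say whether that file is a control. Whether a signal or peak is enrichment over a control is therefore not known here. The lists give no read counts, so the depth is unknown and no interval for a single region can be given, and intervals on shares cover counting of genes only. p-values were not computed: 1 group of 2 biological replicates allows no contrast.

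Promoter windows were drawn from Ensembl release 115 on WBcel235, where 99.9% of 31805 annotated start codons read ATG. Signals were divided by the median IDR peak signal of the same replicate. Motifs were matched on both strands. Alternatives were the stronger 943 peaks, each replicate alone, narrower windows, other assignments of summits to genes, another scaling, other motif flanks and letters. The genes named are all 10 members, genes sharing their peaks, the paralogs, and the 2 genes with the strongest promoter peak of each other list; genes named only as upstream neighbours were added afterwards. Members and lists were chosen with earlier results of these data known. Functions were tested on simulated data. Python 3.11.15, pandas 2.3.3, numpy 2.4.6 and scipy 1.17.1 were used.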

Additional observations from a re-analysis of the deposited data

How the results depend on the processing

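Of 70 recomputed values, 53 stayed within their spread or within 1.5 times the reported count; counts and signals have no sign that could reverse. The count of mitotic cyclin, CDK-1 and CDC-25 genes with a promoter peak was 5 (11.01% of all genes). It fell to 2 in the window from 300 bp before to 100 bp after a 5' end (7.17%). With each summit given to the nearest 5' end it fell to 3 (7.53%). The summits of wee-1.3, cyb-1 and cyb-3 lie farther away or nearer to a neighbour. The count was 5 without replicate 2 (10.4%) and without replicate 3 (10.8%). Agreement of the replicates at IDR peaks is in part built in, because the IDR set was made by comparing their lists. The CDK-1 regulators, G1, anaphase and other cyclin and CDK lists had 4, 1, 3 and 2 genes with one of the 943 strongest peaks. These counts were lower because fewer peaks are counted, and the share of all genes was 6.48%. The first 3 of these lists had 5, 1 and 3 genes in the narrow window (7.17% of all genes), and 5, 1 and 3 with the nearest 5' end (7.53%). Leaving out a replicate kept these lists at 7 to 8, 2, 5 to 6 and 4 to 5. Scaled to each replicate's own strongest regions, wee-1.3 was 14.7 in place of 14.5, more than its small SD. With 1 mismatch allowed, 4 of the 5 peaks held an E2F octamer in place of 1. With 2 replicates, the scaled value of either alone differs from the mean by less than 1 SD by construction. Those values are among the 53 and could not have moved. The summit distance moved from 111 to 112 bp upstream at cdk-1 and from 582 to 586 bp at cyb-3 without replicate 3. At cyb-1 it moved from 493 to 480 bp upstream without replicate 2. No paired analysis was possible because there is only 1 group. Depth limits are unknown, since regions below each list's lowest signal are not recorded.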
